A study of Arabidopsis with 8 samples.

Results

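SAUR (SMALL AUXIN UP RNA) genes encode small proteins and form one of the large families of early auxin-responsive genes in plants. Many SAUR proteins bind and inhibit D-clade PP2C phosphatases, which leaves the plasma membrane proton pumps phosphorylated and active, and the acidified wall then loosens so that the cell can expand. Many SAUR genes lie side by side on the chromosomes as tandem copies, and they are known from growing hypocotyls, cotyledons, petioles, stamen filaments and roots. The genes described here are the 53 Arabidopsis thaliana SAUR genes on a list of locus tags that leaves out the SAUR41 subfamily (SAUR40, SAUR41, SAUR71 and SAUR72), out of 25404 genes listed in at least 1 library. Symbols of all 53 came from a RefSeq gene table (assembly TAIR10.1), which names a further 22 genes SAUR that are not on the list and are not analysed here.

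RNA was sequenced from OE-SAUR41, a genotype labelled as overexpressing SAUR41, and from the Col-0 wild type, each as roots and as shoot parts of 5-day-old seedlings. The 4 groups were OE-SAUR41 root, Col-0 root, OE-SAUR41 shoot and Col-0 shoot, with 2 libraries each. The promoter of the transgene, the number of independent lines and any pooling of seedlings were not given in the sources used here. Nothing in the labels says that libraries with the same genotype and tissue were grown separately, so p-values cover only the spread between libraries, possibly technical. Values are FPKM, fragment counts divided by transcript length and by library size, which allow levels of different genes to be compared, and the read depth behind them is unknown. A gene that a library's file does not hold is given below as not listed.

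SAUR41 stood at 7996 and 4670 FPKM in OE-SAUR41 roots, against 4.64 and 7.46 FPKM in Col-0 roots, and at 10675 and 10248 FPKM in OE-SAUR41 shoots, against 4.93 and 8.29 FPKM in Col-0 shoots. Markers matched the tissue labels, with 6 root markers summing to between 248 and 268 FPKM in the root libraries and between 5.88 and 9.03 FPKM in the shoot libraries, and 6 shoot markers to between 85.1 and 126 FPKM in roots and between 26928 and 53413 FPKM in shoots. Libraries listed between 19573 and 23028 genes. The Col-0 shoot pair stood apart, with 29.1% of all 19863 tested genes differing at least 2-fold between its 2 libraries, against 1.27% to 2.04% in the other groups. Among the SAUR genes the pair differed less, with 2 of the 42 tested (4.76%) at least 2-fold apart. Their median log2 difference, Col-0 shoot 2 minus Col-0 shoot 1, was 0.20, against -0.50 for all genes and -0.00 for genes whose locus span lies in the range of the SAUR genes (genes of like span below). The median size of the difference was 0.30 for the SAUR genes, 0.61 for all genes and 0.38 for genes of like span.

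The SAUR genes covered a wide range of levels. Of the 53, 52 appeared in at least 1 library, 21 of them in all 8, and SAUR39 (AT3G43120) was listed in none. Between 21 and 22 of the genes reached 1 FPKM in each root library and in each OE-SAUR41 shoot library, against 35 and 33 in Col-0 shoots 1 and 2. Of all genes, OE-SAUR41 shoots listed fewer, 19573 and 19824, than Col-0 shoots, 21722 and 20851. The share of all genes that reached 1 FPKM is not given, so nothing is read from these counts. Their summed level was 305 and 362 FPKM in OE-SAUR41 roots and 478 and 452 FPKM in Col-0 roots. In shoots it was 179 and 181 FPKM in OE-SAUR41 and 264 and 353 FPKM in Col-0. In both tissues the OE-SAUR41 sums lay below the Col-0 sums. Without SAUR78, the gene with the highest shoot level, the shoot sums were 111 and 114 FPKM in OE-SAUR41. In Col-0 they were 214 and 287 FPKM. SAUR78 lay higher in OE-SAUR41 than in Col-0 shoots, so leaving it out widens the gap. Of all tested genes, 77.0% had lower means in OE-SAUR41 shoots, so the shoot sums are not read as a SAUR result.

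**Figure D1:**
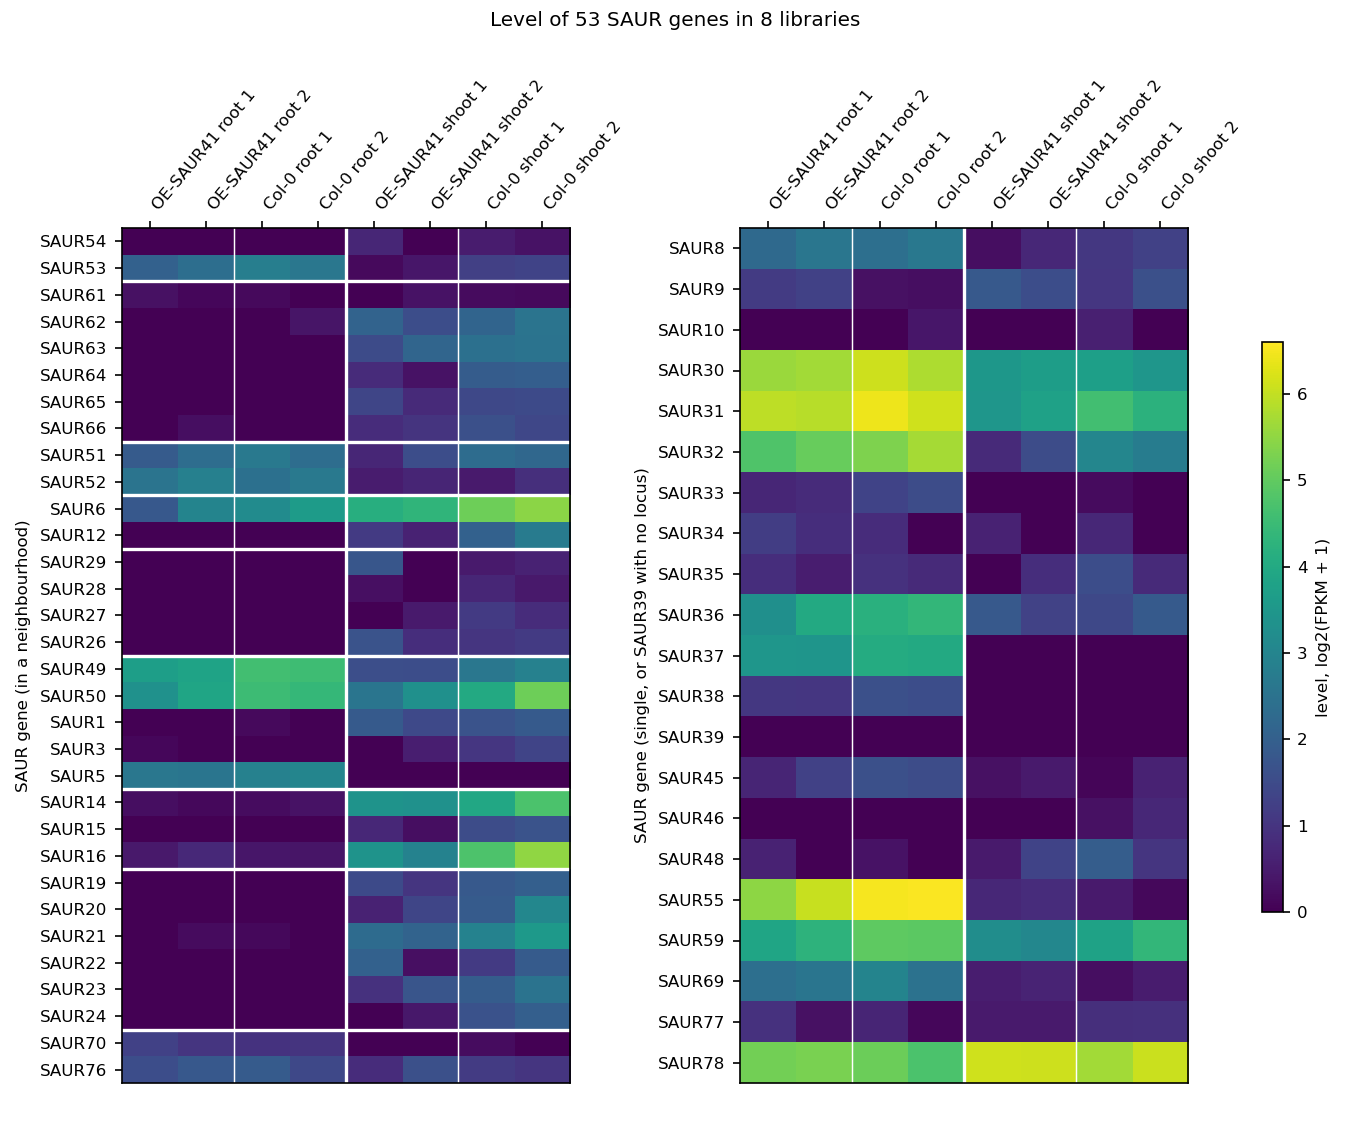
Level of each SAUR gene, as log2(FPKM + 1) on the colour scale, in the 8 libraries (columns; OE-SAUR41 left of Col-0 in roots and then in shoots). The left panel holds the 32 genes of the 9 chromosomal neighbourhoods, separated by white lines, and the right panel the 20 single genes and SAUR39, which no file placed. Most genes of the left panel are dark in roots, and the brightest root rows (SAUR55, SAUR31, SAUR30) are in the right panel.

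Roots and shoots were each led by a few genes. In OE-SAUR41, SAUR31, SAUR30 and SAUR78 were among the 5 highest of both tissues, and in Col-0 only SAUR31 was. In OE-SAUR41 roots the order was SAUR31, SAUR55, SAUR30, SAUR78 and SAUR32, with means of 59.6 ± 1.12, 54.2 ± 15.0, 49.2 ± 2.20, 36.6 ± 1.17 and 29.6 ± 4.47 FPKM (SD, n = 2 each). There the libraries of SAUR31 and SAUR55 overlapped, as did those of SAUR55 and SAUR30. In Col-0 roots it was SAUR55, SAUR31, SAUR30, SAUR32 and SAUR59, with means of 91.2 ± 2.39, 76.7 ± 12.2, 60.7 ± 9.42, 44.9 ± 8.48 and 29.8 ± 0.333 FPKM (SD, n = 2 each), and no neighbours among these 5 overlapped. SAUR78 led both shoot groups, with 68.2 ± 0.826 FPKM in OE-SAUR41 and 58.0 ± 11.1 FPKM in Col-0 (SD, n = 2 each). SAUR6 followed in both, with 17.9 ± 1.77 FPKM in OE-SAUR41 shoots and 38.7 ± 6.21 FPKM in Col-0 shoots (SD, n = 2 each). The next places in OE-SAUR41 shoots went to SAUR31, SAUR30 and SAUR14, with means of 11.4, 11.1 and 9.27 FPKM, and SAUR31 and SAUR30 overlapped. The next places in Col-0 shoots went to SAUR16, SAUR50, SAUR31 and SAUR14, and from SAUR6 on the libraries of each overlapped those of the next.

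By position, 32 of the genes lay in 9 neighbourhoods, defined as runs of SAUR genes on the list with at most 20 kb between adjacent ones, and 20 were single. In roots 4 of the 9 neighbourhoods summed to under 1 FPKM in every library, and the other 5 did not. Of the 32 genes, 23 stood below 1 FPKM in every root library and 15 were listed in no root library. Of the 20 single genes, 5 stood below 1 FPKM in every root library and 1, SAUR46, was listed in none. Genes of these tandem groups are close in sequence. How reads matching several of them were assigned was not given in the sources used here, so the split of a neighbourhood's level among its members is uncertain, and the sums are given beside them.

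The SAUR19 to SAUR24 group (chromosome 5, 5962897 to 5984112, TAIR10) is known for promoting cell expansion in hypocotyls. Its 6 genes summed to 0 and 0.148 FPKM in OE-SAUR41 roots and to 0.104 and 0 FPKM in Col-0 roots, all of it SAUR21. In shoots the sum was 10.4 and 8.83 FPKM in OE-SAUR41, against 18.1 and 31.3 FPKM in Col-0. Both OE-SAUR41 shoots thus lay below both Col-0 shoots. The SAUR61 to SAUR66 group (chromosome 1, 10300878 to 10321864) includes SAUR62, known from pollen tubes, and SAUR63, which promotes elongation of hypocotyls and stamen filaments. It summed to 0.234 and 0.273 FPKM in OE-SAUR41 roots and to 0.128 and 0.291 FPKM in Col-0 roots. Its shoot sums were 8.27 and 7.58 FPKM in OE-SAUR41 and 14.5 and 16.1 FPKM in Col-0, and again did not overlap.

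The SAUR14, SAUR15 and SAUR16 group (chromosome 4, 18124978 to 18131060) holds SAUR15, a classic auxin-inducible gene also known as SAUR-AC1, and SAUR14 and SAUR16, known from light-controlled growth of hypocotyls and cotyledons. In roots its sums were 0.548 and 0.815 FPKM in OE-SAUR41 and 0.496 and 0.544 FPKM in Col-0. In shoots they were 19.6 and 15.9 FPKM in OE-SAUR41, against 42.4 and 71.9 FPKM in Col-0, with the OE-SAUR41 sums again below. The SAUR26 to SAUR29 group (chromosome 3, 976933 to 983751), whose members SAUR26, SAUR27 and SAUR28 are known from growth at different temperatures, was listed in no root library. Its shoot sums were 4.82 and 1.20 FPKM in OE-SAUR41 and 3.25 and 2.86 FPKM in Col-0, which overlapped.

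A neighbourhood on chromosome 4 (16577404 to 16599421, 22.0 kb) mixed both patterns among its 5 genes. SAUR49, known from leaf senescence, stood at 12.1 and 13.3 FPKM in OE-SAUR41 roots and 23.2 and 22.3 FPKM in Col-0 roots, and lower in shoots, at 2.00 and 1.96 FPKM in OE-SAUR41 and 5.08 and 6.50 FPKM in Col-0. The adjacent SAUR50, known from light-controlled opening of cotyledons, was present in both tissues, with 9.04 and 13.7 FPKM in OE-SAUR41 roots and 22.2 and 20.2 FPKM in Col-0 roots. Its shoot levels were 4.92 and 8.95 FPKM in OE-SAUR41 and 15.0 and 34.5 FPKM in Col-0. SAUR1, next to it, was at most 0.129 FPKM in roots, and stood at 2.63 and 1.75 FPKM in OE-SAUR41 shoots and 2.22 and 2.68 FPKM in Col-0 shoots. SAUR3 was listed in 1 root library, at 0.0804 FPKM in OE-SAUR41. In OE-SAUR41 shoots it was listed in 1 library, at 0.475 FPKM, and its tissues overlapped there, while Col-0 shoots held 1.08 and 1.56 FPKM.

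SAUR5, at the other end of that neighbourhood, was a root gene. It stood at 5.16 and 4.91 FPKM in OE-SAUR41 roots and 6.52 and 6.97 FPKM in Col-0 roots, and no shoot library listed it. The 3 genes listed in roots and in no shoot library were SAUR5, SAUR37 and SAUR38. Of the 4 neighbourhoods of 2 genes, 2 held unlike neighbours. SAUR53, linked to organ elongation, was listed in all 8 libraries, while SAUR54 beside it was listed in no root library and reached at most 0.639 FPKM in shoots. SAUR6 reached 11.3 FPKM in roots, where SAUR12, 3416 bp away, was not listed. The other 2 held genes that were both listed in every root library. SAUR51 stood at 2.73 and 4.13 FPKM in OE-SAUR41 roots and 5.31 and 4.10 FPKM in Col-0 roots, against 0.643 and 1.96 FPKM in OE-SAUR41 shoots and 4.06 and 3.60 FPKM in Col-0 shoots. SAUR52 beside it had 4.85 and 6.31 FPKM in OE-SAUR41 roots and 4.39 and 5.35 FPKM in Col-0 roots, and under 1 FPKM in every shoot library. SAUR70 and SAUR76 summed to 3.41 and 3.54 FPKM in OE-SAUR41 roots and 3.71 and 2.70 FPKM in Col-0 roots. SAUR76 gave most of it and overlapped between the tissues in OE-SAUR41.

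The tissue comparison asks which SAUR genes belong to the root and which to the shoot of these seedlings. Over all 53 genes, 18 had root libraries entirely above the shoot libraries in both genotypes, and 19 had them entirely below. Among all 25401 listed genes kept for comparison the shares were 55.5% above and 11.9% below. The 19 genes lower in roots are 35.8% of the 53. Among the 8778 genes of like span the share was 14.4%. In bulk tissue such as this, fewer cells of a type and less RNA per cell cannot be told apart.

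The limma test covered the 42 SAUR genes that reached 1 FPKM in 2 or more libraries. In OE-SAUR41 it called 17 higher (66.0% of all genes tested) and 17 lower (11.8%) in roots than in shoots, and in Col-0 17 higher (52.7%) and 22 lower (13.2%), at a Benjamini-Hochberg adjusted p under 0.05. Over both genotypes 16 were called higher (50.7%) and 17 lower (11.0%). Of the 42, 19 passed the filter through their shoot libraries alone and 9 through their root libraries alone, and such genes entered through the tissue where they are high, so nothing is read from these counts. The fold changes moved with the scaling of the libraries, since over all genes the median root over shoot log2 fold change was 1.22 in OE-SAUR41 and 0.91 in Col-0. With each library scaled to a common median ratio, the called SAUR genes were 14 higher (29.5%) and 17 lower (24.7%) in OE-SAUR41, and 12 higher (21.9%) and 21 lower (20.7%) in Col-0. With quantile normalization they were 6 higher (32.5%) and 20 lower (22.9%) in OE-SAUR41, and 11 higher (28.4%) and 22 lower (21.8%) in Col-0.

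The gene with the largest root excess was SAUR55 (AT5G50760, chromosome 5, 20644661 to 20645469). It stood at 43.6 and 64.8 FPKM in OE-SAUR41 roots, against 0.675 and 0.803 FPKM in OE-SAUR41 shoots, and at 89.5 and 92.9 FPKM in Col-0 roots, against 0.400 and 0.107 FPKM in Col-0 shoots. All root libraries were far above all shoot libraries, with log2 fold changes on the log2(FPKM + 1) scale of 4.96 in OE-SAUR41 (SE 0.27, limma adjusted p = 7.39e-06) and 6.21 in Col-0 (SE 0.27, limma adjusted p = 2.48e-06). On this scale the change of a low gene comes out too small. SAUR37 (AT4G31320) was 10.1 and 9.77 FPKM in OE-SAUR41 roots and 15.6 and 15.1 FPKM in Col-0 roots and was not listed in any shoot library (limma adjusted p = 2.06e-05 and 9.17e-06). Both SAUR55 and SAUR37 passed the filter through their root libraries alone.

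SAUR32 (AT2G46690), known for a role at the apical hook, stood at 26.4 and 32.7 FPKM in OE-SAUR41 roots and 0.737 and 1.90 FPKM in OE-SAUR41 shoots, a log2 fold change of 3.76 (limma adjusted p = 4.67e-05, SE 0.31). In Col-0 it stood at 38.9 and 50.9 FPKM in roots and 7.11 and 5.85 FPKM in shoots, a log2 fold change of 2.61 (limma adjusted p = 2.93e-04, SE 0.31). SAUR5 had log2 fold changes of 2.59 in OE-SAUR41 and 2.95 in Col-0, and also passed the filter through its root libraries alone. SAUR30 (AT5G53590) stood at 47.6 and 50.7 FPKM in OE-SAUR41 roots, against 10.3 and 11.8 FPKM in OE-SAUR41 shoots, and at 67.4 and 54.1 FPKM in Col-0 roots, against 12.2 and 10.1 FPKM in Col-0 shoots. It was called higher in roots in both genotypes, and its shoot libraries overlapped between genotypes.

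SAUR36 (AT2G45210), a promoter of leaf senescence, had 8.72 and 15.0 FPKM in OE-SAUR41 roots, against 2.59 and 1.45 FPKM in OE-SAUR41 shoots, and 17.3 and 19.8 FPKM in Col-0 roots, against 1.71 and 2.68 FPKM in Col-0 shoots. Its log2 fold change was 2.07 in OE-SAUR41 (SE 0.36, limma adjusted p = 0.00162), but 0.94 with median scaling (adjusted p = 0.105) and 0.77 with quantile normalization (adjusted p = 0.193). Among the remaining called genes SAUR59 changed sign with median scaling, where its log2 fold change of 0.93 in OE-SAUR41 became -0.38 and that of 0.86 in Col-0 became -0.08. With quantile normalization SAUR59 was at -0.17 in OE-SAUR41, and SAUR51, called at 0.99, was at -0.32. No other called SAUR gene changed sign between root and shoot under these scalings.

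On the shoot side, SAUR16 (AT4G38860, chromosome 4, 18130268 to 18131060) showed the largest difference in Col-0. It stood at 0.365 and 0.703 FPKM in OE-SAUR41 roots, against 9.50 and 6.59 FPKM in OE-SAUR41 shoots, and at 0.326 and 0.299 FPKM in Col-0 roots, against 25.9 and 44.1 FPKM in Col-0 shoots. The log2 fold change, root over shoot, was -2.55 in OE-SAUR41 (SE 0.35, limma adjusted p = 5.45e-04) and -4.73 in Col-0 (SE 0.35, limma adjusted p = 2.49e-05). SAUR14 (AT4G38840) showed the same order, at 0.184 and 0.112 FPKM in OE-SAUR41 roots and 9.41 and 9.12 FPKM in OE-SAUR41 shoots. Its Col-0 levels were 0.170 and 0.246 FPKM in roots and 14.5 and 25.6 FPKM in shoots.

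SAUR21 (AT5G18030), SAUR63 (AT1G29440), SAUR62 (AT1G29430) and SAUR6 (AT2G21210) complete the 6 genes named for the shoot. Their log2 fold changes, root over shoot, lay between -2.11 and -1.82 in OE-SAUR41 and between -3.16 and -1.90 in Col-0. The 6 genes were picked from those called in both genotypes. Of them SAUR16, SAUR14, SAUR21, SAUR63 and SAUR62 passed the filter through their shoot libraries alone. Of SAUR21, SAUR63, SAUR62 and SAUR6, only SAUR6 had more than trace levels in roots. It stood at 2.50 and 6.81 FPKM in OE-SAUR41 roots and 8.09 and 11.3 FPKM in Col-0 roots. In shoots it stood at 16.6 and 19.1 FPKM in OE-SAUR41 and 34.3 and 43.1 FPKM in Col-0. SAUR78 (AT1G72430), reported to interact with ethylene receptors, was high in both tissues. It stood at 35.8 and 37.5 FPKM in OE-SAUR41 roots and 68.7 and 67.6 FPKM in OE-SAUR41 shoots, and at 33.5 and 25.5 FPKM in Col-0 roots and 50.1 and 65.8 FPKM in Col-0 shoots, and it was called lower in roots in both genotypes.

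**Figure D2:**
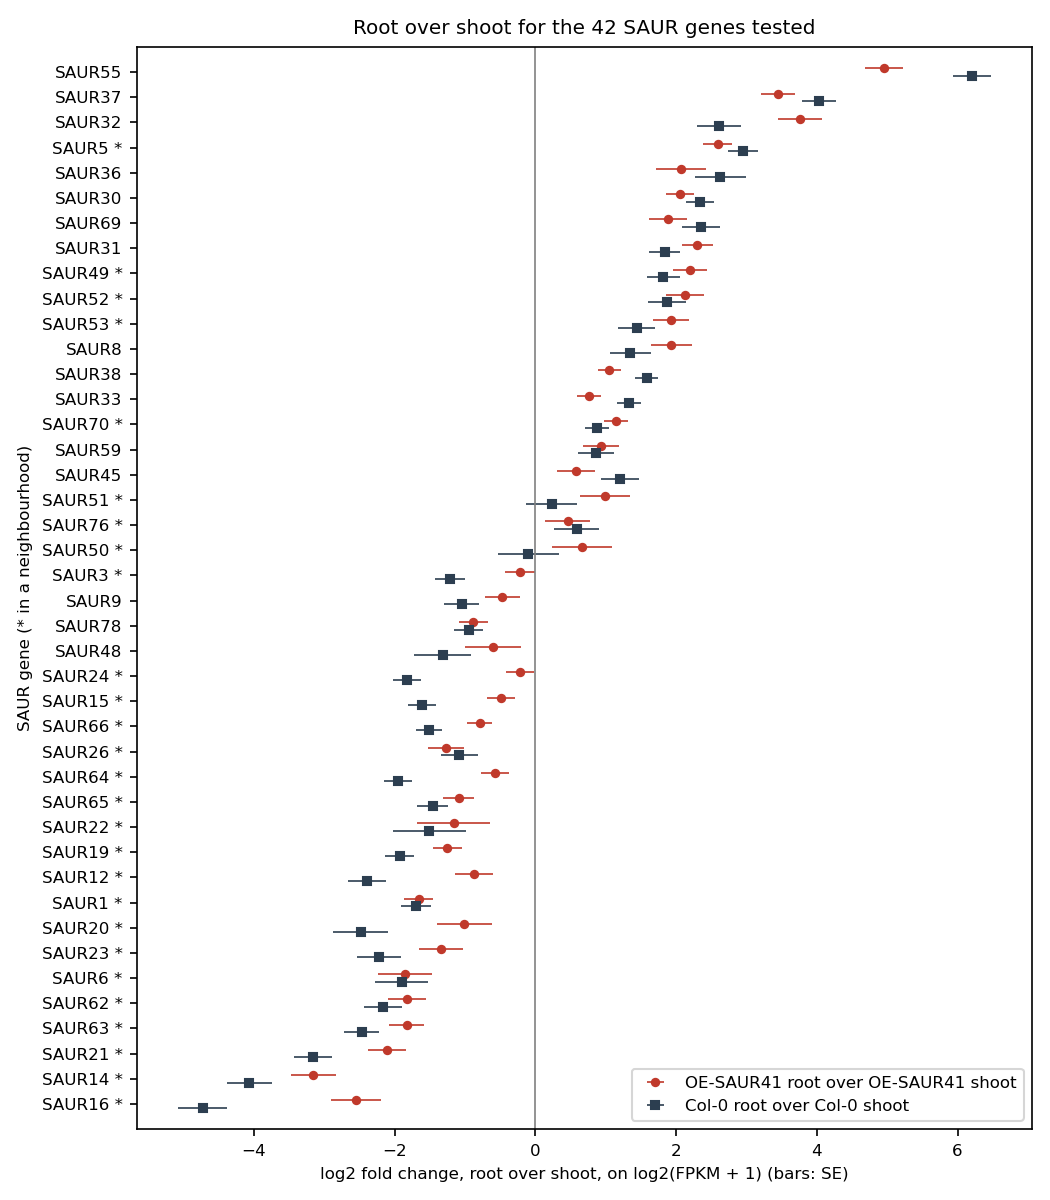
Log2 fold change, root over shoot, on the log2(FPKM + 1) scale, for the 42 tested SAUR genes (rows, ordered by the mean over genotypes; asterisks mark genes in a neighbourhood), in OE-SAUR41 (circles) and Col-0 (squares), with bars for the SE. SAUR55 lies at 4.96 and 6.21, SAUR16 at -2.55 and -4.73, and SAUR59, at 0.93 and 0.86, changed sign with median scaling.

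By position, and with no filter on level, 6 of the 32 genes in neighbourhoods had root libraries entirely above the shoot libraries in both genotypes and 17 had them entirely below. Of the 20 single genes, 12 had them above and 2 below. The shares over all listed genes are the 55.5% and 11.9% given above. These counts describe the list, whose tandem copies may share reads, and carry no test.

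The genotype comparison asks whether other SAUR genes differ when SAUR41 is overexpressed. In roots no SAUR gene was called by limma, with 0.00503% of all genes called higher, which was SAUR41 alone, and 0% lower. At an unadjusted p under 0.05, 1 SAUR gene was higher (0.614% of all genes) and 7 were lower (1.1%). SAUR33 and SAUR45 passed the filter only through Col-0 roots and SAUR70 only through OE-SAUR41 roots. Nothing is therefore read from these 2 counts. The 53 genes held 15 whose OE-SAUR41 root libraries both lay below both Col-0 root libraries (28.3%), against 17.5% of all genes and 19.9% of genes of like span. They held 5 with both libraries above (9.43%), against 11.3% and 9.32%. The lower side held SAUR55, SAUR31, SAUR30, SAUR32 and SAUR59, the 5 with the highest means in Col-0 roots. SAUR78 overlapped SAUR59 in Col-0 roots and lay on the higher side. This order rests on the Col-0 values being compared, so nothing is read from it. The lower side also held SAUR5, SAUR37 and SAUR38, the genes listed in roots alone. The share among all genes listed in roots alone is not given, so nothing is read from this either.

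SAUR33 (AT3G61900), at 0.646 and 0.747 FPKM in OE-SAUR41 roots and 1.52 and 1.88 FPKM in Col-0 roots, had the smallest p of the genes on the lower side, with a log2 fold change of -0.67 (SE 0.17, limma unadjusted p = 0.00437, adjusted p = 1.00). SAUR33 passed the filter through Col-0 roots alone, so nothing is read from its p. SAUR38 (AT2G24400) followed with 1.09 and 1.05 FPKM in OE-SAUR41 and 2.05 and 1.94 FPKM in Col-0. SAUR59 (AT3G60690) had 13.6 and 18.4 FPKM in OE-SAUR41 and 30.1 and 29.6 FPKM in Col-0. In each of these the libraries of the genotypes did not overlap, and none passed the adjusted threshold. SAUR49 had a log2 fold change of -0.80, SAUR55 of -0.77 and SAUR6 of -1.02, the lowest of the 42.

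On the higher side SAUR9 (AT4G36110), whose protein inhibits D-clade phosphatases, stood at 1.21 and 1.44 FPKM in OE-SAUR41 roots and 0.239 and 0.182 FPKM in Col-0 roots, a log2 fold change of 0.94 (SE 0.25, limma unadjusted p = 0.00609, adjusted p = 1.00). SAUR78 had 35.8 and 37.5 FPKM in OE-SAUR41 and 33.5 and 25.5 FPKM in Col-0. SAUR70 (AT5G20810), which passed the filter through OE-SAUR41 roots alone, had 1.44 and 1.02 FPKM in OE-SAUR41 and 0.953 and 0.986 FPKM in Col-0. The libraries did not overlap for these 3 genes. SAUR66 and SAUR16, also named for their p, had log2 fold changes of 0.12 and 0.22 at levels under 1 FPKM in roots.

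**Figure D3:**
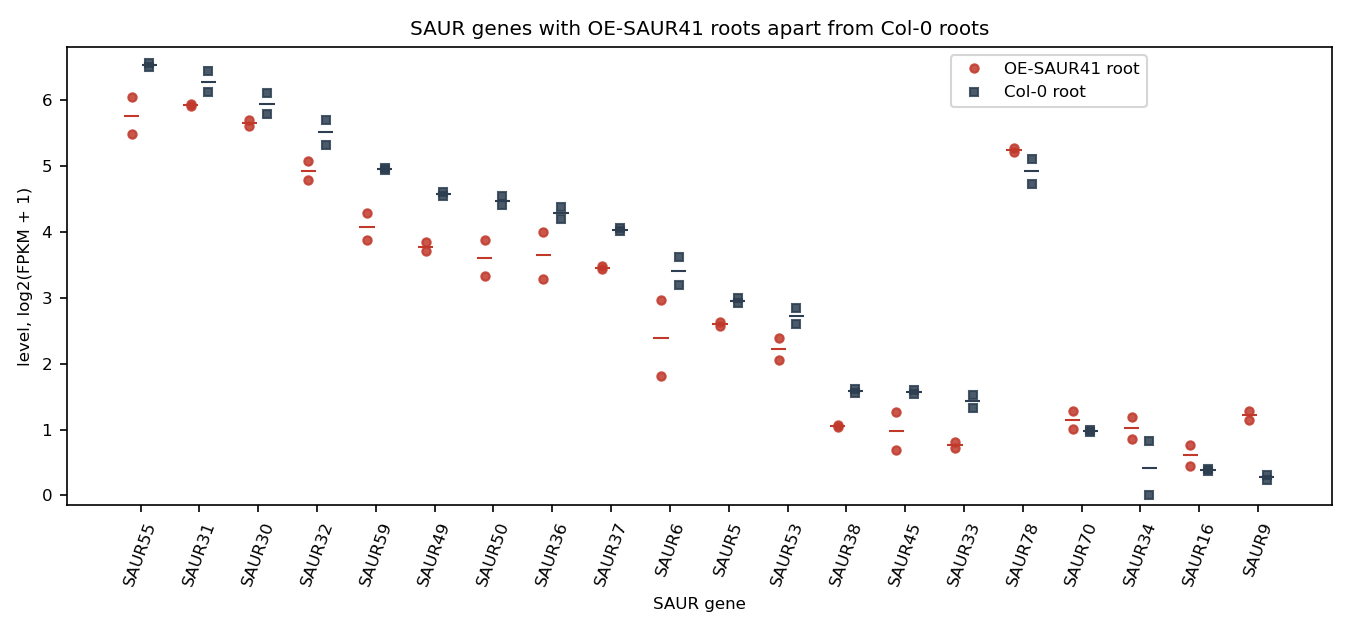
Level, as log2(FPKM + 1), in each OE-SAUR41 root library (circles) and Col-0 root library (squares) of the 20 SAUR genes whose libraries did not overlap between genotypes, with short lines at the group means. The 15 genes with lower OE-SAUR41 levels come first, ordered by their Col-0 level, and the 5 with higher levels last; none was called.

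In shoots no SAUR gene was called either. Of the 42 tested, 32 (76.2%) had lower OE-SAUR41 means, against 77.0% of all genes and 62.8% of genes of like span. SAUR5, SAUR37 and SAUR38, listed in no shoot library, had no change. The median log2 fold change of the 42 was -0.62, against -0.32 for all genes and -0.13 for genes of like span. With median scaling it was -0.35, against 0.00 for all genes, and with quantile normalization -0.19, against -0.01. Limma called 0 of the 42 in either direction (0.0101% of all genes each way), while at an unadjusted p under 0.05 it held 22 lower (11.8%) and 0 higher (2.30%). The smallest adjusted p was 0.0617, for SAUR24. Of the 53 genes, 28 had both OE-SAUR41 shoot libraries below both Col-0 shoot libraries (52.8%), against 28.1% of all genes and 25.6% of genes of like span. Only 3 had both above (5.66%), SAUR78, SAUR69 and SAUR55, against 6.18% of all genes and 9.18% of genes of like span. The filter let 12 of the 42 tested genes pass only through their Col-0 shoot libraries, so nothing is read from counts or medians over the 42. The counts over all 53 do not depend on it.

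**Figure D4:**
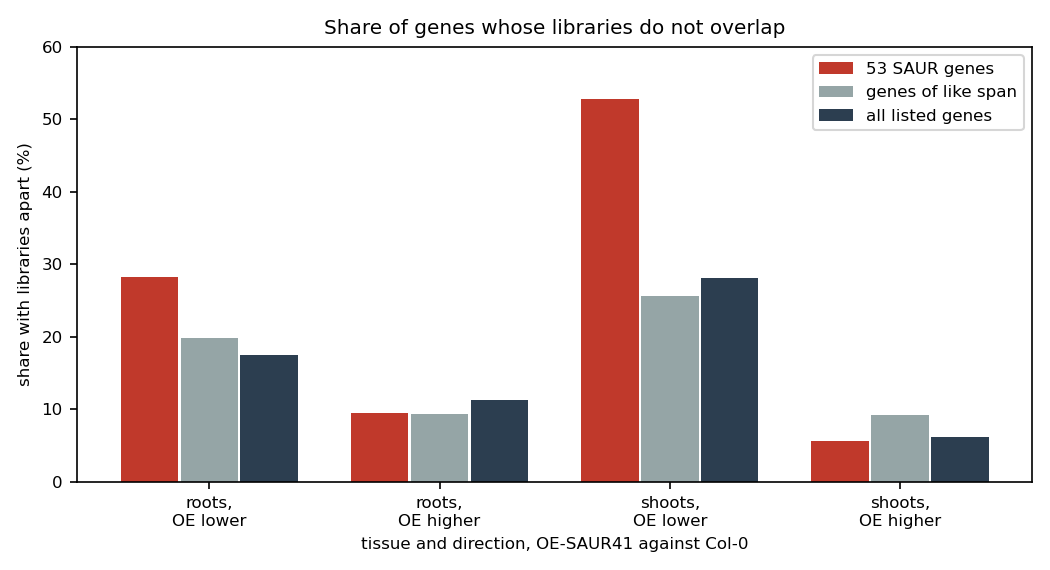
Share of genes (percent, bars from 0) whose OE-SAUR41 libraries both lie on one side of both Col-0 libraries, by tissue and direction, for the 53 SAUR genes, the 8778 genes of like span and all 25401 listed genes. The shoot share on the lower side is 52.8% for the SAUR genes, 25.6% for genes of like span and 28.1% for all genes.

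Against Col-0 shoot 1 alone, both OE-SAUR41 shoots were lower for 35 of the 53 SAUR genes (66.0%), a share close to that of all genes (64.6%) and above that of genes of like span (43.9%). Against Col-0 shoot 2 alone, they were lower for 32 (60.4%), against 36.0% of all genes and 41.0% of genes of like span. Calls also turned on this pair. Without Col-0 shoot 1, limma called 10 SAUR genes lower (0.886% of all genes) and without Col-0 shoot 2 it called 16 lower (45.8%), with 0 called higher in either case (0.911% and 3.93%). Picked from the calls of both fits were SAUR12, SAUR16, SAUR20, SAUR21, SAUR24, SAUR49, SAUR50, SAUR59 and SAUR64. Their log2 fold changes were -2.34 to -1.21 without Col-0 shoot 1 and -1.59 to -0.66 without Col-0 shoot 2. The choice itself makes these values large, so nothing is read from them. Of these genes, SAUR12, SAUR20, SAUR24 and SAUR64 had passed the filter only through Col-0 shoots. A Col-0 shoot library left alone was taken to have the spread of the other 3 groups. The 6 shoot markers summed to between 47026 and 47294 FPKM in OE-SAUR41 shoots and between 26928 and 53413 FPKM in Col-0 shoots. Of the root markers, EXPA7 was listed in neither OE-SAUR41 shoot library and RHD6 in neither Col-0 shoot library. The part of this spread in the SAUR values was not tested. With the trend of each library on gene span removed, 3 were called lower (0.327% of all genes), SAUR16, SAUR24 and SAUR49, and 0 higher (0.417%).

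SAUR24 (AT5G18080, chromosome 5, 5983840 to 5984112) was not listed in OE-SAUR41 shoot 1 and stood at 0.350 FPKM in OE-SAUR41 shoot 2, against 2.16 and 2.97 FPKM in Col-0 shoots. Its log2 fold change was -1.61 (limma adjusted p = 0.0617, SE 0.20). That p was 0.0300 with the span correction, 0.0181 with Col-0 shoot 1 left out and 0.00197 with Col-0 shoot 2 left out. SAUR64 (AT1G29450) stood at 0.763 and 0.243 FPKM in OE-SAUR41 and 2.80 and 2.94 FPKM in Col-0, a log2 fold change of -1.39 (limma adjusted p = 0.0873, SE 0.20). SAUR15 (AT4G38850) stood at 0.668 and 0.188 FPKM in OE-SAUR41 and 1.90 and 2.20 FPKM in Col-0. All 3 belong to neighbourhoods with no or only trace levels in roots, and their OE-SAUR41 and Col-0 shoots did not overlap. They passed the filter through Col-0 shoots alone.

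SAUR16 and SAUR32 complete the 5 genes of smallest p on the lower side, with log2 fold changes of -1.97 and -1.73 and a limma adjusted p of 0.121 each. For SAUR16 the adjusted p was 0.0278 with the span correction, 0.0157 with Col-0 shoot 1 left out and 0.00290 with Col-0 shoot 2 left out. SAUR32 passed without Col-0 shoot 2 (adjusted p = 0.00247) and not without Col-0 shoot 1. SAUR49 and SAUR50, adjacent on chromosome 4, had log2 fold changes of -1.18 and -1.63. SAUR12 (AT2G21220) stood at 1.16 and 0.554 FPKM in OE-SAUR41 shoots and 3.13 and 5.68 FPKM in Col-0 shoots, a log2 fold change of -1.52.

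In 3 of the larger neighbourhoods nearly all genes lay on the lower side in OE-SAUR41 shoots. In the SAUR61 to SAUR66 group, 5 of 6 genes had both OE-SAUR41 libraries below both Col-0 libraries, all but SAUR61. The median log2 fold change of the 5 was -0.61, but -0.30 with median scaling and -0.14 with quantile normalization, where SAUR65 turned to 0.02. In the SAUR14 to SAUR16 group all 3 did, with a median of -1.11, and of -1.08 and -0.80 with these scalings. In the SAUR19 to SAUR24 group SAUR19, SAUR20, SAUR21, SAUR23 and SAUR24 did. The median of its 6 genes was -0.95, but -0.65 and -0.43 with these scalings. Of the genes in these medians, SAUR15, SAUR20, SAUR22, SAUR23, SAUR24, SAUR64, SAUR65 and SAUR66 passed the filter only through Col-0 shoots. Nothing is therefore read from the medians of the 3 groups. SAUR22, at 3.15 and 0.206 FPKM in OE-SAUR41 and 1.19 and 2.70 FPKM in Col-0, overlapped. SAUR29 and SAUR26 also varied within OE-SAUR41 shoots, at 2.38 FPKM and not listed for SAUR29 and at 2.23 and 0.812 FPKM for SAUR26. With no filter on level, 22 of the 32 neighbourhood genes lay lower without overlap and 0 higher, and 6 of the 20 single genes lay lower and 3 higher. The shares over all listed genes are the 28.1% and 6.18% given above.

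**Figure D5:**
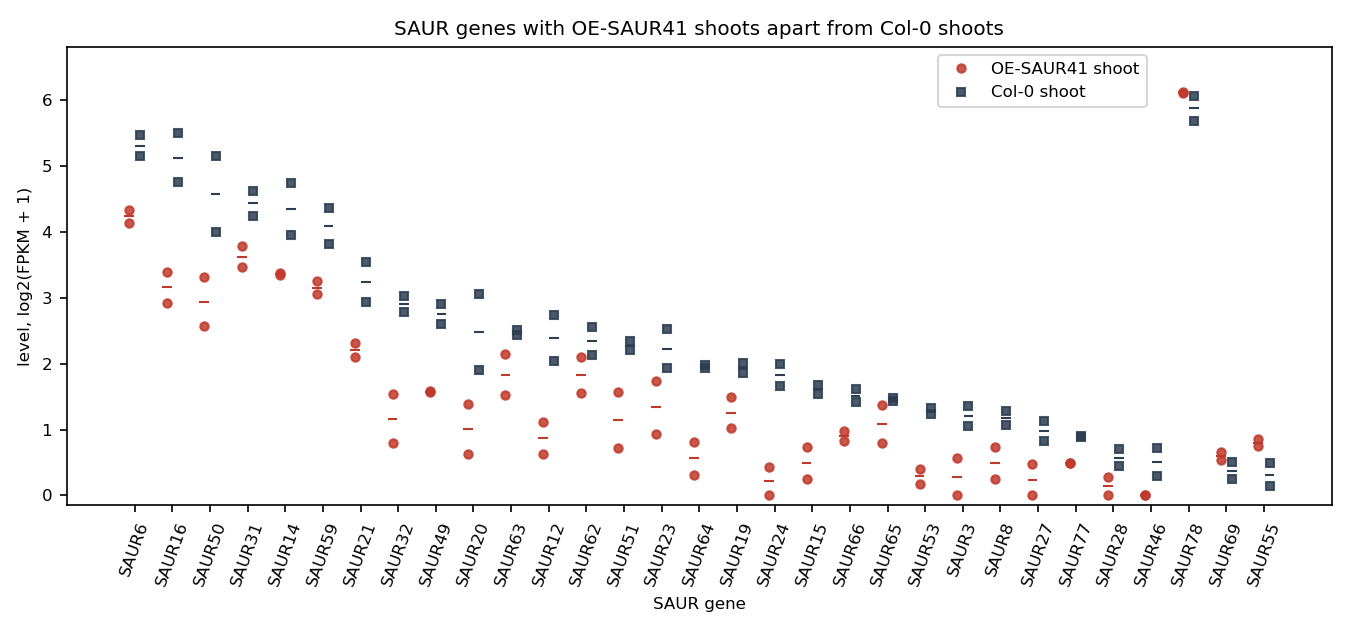
Level, as log2(FPKM + 1), in each OE-SAUR41 shoot library (circles) and Col-0 shoot library (squares) of the 31 SAUR genes whose libraries did not overlap between genotypes, with short lines at the group means. The 28 genes with lower OE-SAUR41 levels come first, ordered by their Col-0 level, and SAUR78, SAUR69 and SAUR55 last; none was called.

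On the higher side in shoots the values were small. SAUR55 stood at 0.675 and 0.803 FPKM in OE-SAUR41 and 0.400 and 0.107 FPKM in Col-0, a log2 fold change of 0.48 (limma adjusted p = 0.419, SE 0.27). SAUR78 had a log2 fold change of 0.24, SAUR69 of 0.22, SAUR9 of 0.36 and SAUR26 of 0.20, none with an adjusted p under 0.419. SAUR26 turned to -0.22 without OE-SAUR41 shoot 1. SAUR30 and SAUR36, root-high genes with shoot levels above 1 FPKM, had log2 fold changes of -0.01 and -0.09, and both turned positive with median scaling and with quantile normalization.

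Across both tissues, 7 SAUR genes had OE-SAUR41 libraries below Col-0 libraries without overlap in roots and again in shoots (13.2%), against 6.40% of all genes and 6.84% of genes of like span. They were SAUR6, SAUR31, SAUR32, SAUR49, SAUR50, SAUR53 and SAUR59. SAUR31 (AT4G00880) stood at 60.4 and 58.8 FPKM in OE-SAUR41 roots and 85.3 and 68.1 FPKM in Col-0 roots, and averaged 11.4 ± 1.91 FPKM in OE-SAUR41 shoots and 20.7 ± 3.92 FPKM in Col-0 shoots (SD, n = 2 each). SAUR53 (AT1G19840) stood at 3.14 and 4.24 FPKM in OE-SAUR41 roots and 6.14 and 5.09 FPKM in Col-0 roots, and at 0.127 and 0.327 FPKM in OE-SAUR41 shoots and 1.36 and 1.50 FPKM in Col-0 shoots. SAUR78 was higher in both tissues, against 0.992% of all genes. None of these 8 was called in either tissue. SAUR16 was higher in OE-SAUR41 roots and lower in OE-SAUR41 shoots (2.64% of all genes), and SAUR55 lower in roots and higher in shoots (1.01%).

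The difference of the genotype effect between tissues was tested as an interaction, and limma called 0 of the 42 SAUR genes (0% of all genes). At an unadjusted p under 0.05 there were 10 on the side where the root effect exceeded the shoot effect (3.28% of all genes) and 3 on the other (1.49%). Of the 42, 12 passed the filter only through Col-0 shoots, SAUR24 and SAUR64 among them. Nothing is therefore read from these counts. The smallest p values belonged to SAUR24, SAUR64 and SAUR16, with differences of 1.61, 1.39 and 2.18 on the log2 scale and limma adjusted p values of 0.628, 0.671 and 0.792. SAUR24 and SAUR64 were listed in no root library, so their difference is that of the shoots. Without Col-0 shoot 2, 6 were called on the first side (32.1% of all genes) and 1 on the other (2.70%).

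The other genes of the SAUR pathway were read from lists of D-clade PP2C phosphatases, proton pumps, auxin receptors, activating auxin response factors, and PIF and BZR factors, which are regulators of growth under light and brassinosteroid. Limma called none of their 35 tested genes between genotypes, while at an unadjusted p under 0.05 it held 1 higher and 0 lower in roots and 0 higher and 7 lower in shoots. Over all genes these shares were 0.614% and 1.1% in roots and 2.30% and 11.8% in shoots. Between tissues the share of all genes called higher in roots was 66.0% in OE-SAUR41 and 52.7% in Col-0, and lower 11.8% and 13.2%. With median scaling the shares were 29.5% and 21.9% higher, and 24.7% and 20.7% lower. With quantile normalization they were 32.5% and 28.4% higher, and 22.9% and 21.8% lower. The counts here and in the next paragraph stand against the shares of their own direction and scaling. PP2C.D1 was called lower in roots, with log2 fold changes of -2.62 in OE-SAUR41 and -3.49 in Col-0, and it was so under each scaling. Of the other 8 phosphatases, 6 were called higher in OE-SAUR41 and 3 in Col-0, but only PP2C.D9 remained so under both median scaling and quantile normalization in both genotypes. Of the 8 tested proton pumps, 5 were called higher in roots in each genotype, among them AHA2, the main root pump, at 732 and 901 FPKM in OE-SAUR41 roots and 884 and 1139 FPKM in Col-0 roots, against 48.9 and 55.0 FPKM in OE-SAUR41 shoots and 101 and 54.5 FPKM in Col-0 shoots. Under both scalings AHA2 and AHA7 were called higher and AHA11 lower in both genotypes.

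Auxin receptors called higher in roots were 4 of 6 in OE-SAUR41 and 2 of 6 in Col-0, with AFB1 the one called under each scaling. Activating auxin response factors called higher in roots were 5 of 5 in OE-SAUR41 and 3 of 5 in Col-0, of which 2 and 0 remained with median scaling. Of the 7 PIF and BZR factors, 4 were called lower in roots in both genotypes (11.0% of all genes), PIF4, PIF5, PIF7 and BES1, and all 7 were with median scaling and with quantile normalization. PIF4, known for promoting hypocotyl elongation in shade and warmth, was at most 0.198 FPKM in roots, against 23.5 and 22.7 FPKM in OE-SAUR41 shoots and 39.7 and 27.5 FPKM in Col-0 shoots.

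The remaining genes were low. The 11 SAUR genes below the filter were SAUR10, SAUR27, SAUR28, SAUR29, SAUR34, SAUR35, SAUR39, SAUR46, SAUR54, SAUR61 and SAUR77. SAUR77 was listed in all 8 libraries at 0.0876 to 0.915 FPKM. SAUR8 and SAUR61 share their locus with another gene in the files, so their values are uncertain. SAUR8 stood at 3.76 and 5.06 FPKM in OE-SAUR41 roots and 4.32 and 5.22 FPKM in Col-0 roots, and at 0.184 and 0.672 FPKM in OE-SAUR41 shoots and 1.09 and 1.42 FPKM in Col-0 shoots.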

How the data were processed

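FPKM values, 1 file per library, were made and deposited by the authors, per the file headers. Per the labels' protocols, TRIzol was used for total RNA and an Illumina HiSeq for sequencing. The build was TAIR10, per the submitters' processing notes. The aligner, quantifier, strand setting and treatment of reads matching several genes were not given in the sources used here. Because the files hold no 0, a gene not listed was taken as 0, and 3 genes with failed estimates were left out. Starts in the files count from 0 and were raised by 1. Depth is unknown, so no counting interval is given.

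The 19863 genes that reached 1 FPKM in 2 or more libraries were tested on log2(FPKM + 1) in 1 limma fit of all 8 libraries with a mean for each of the 4 groups (limma 3.58.1 in R 4.3.3, functions lmFit, contrasts.fit and eBayes, the last with its trend option; 4 residual and 3.53 prior degrees of freedom), two-sided, with Benjamini-Hochberg adjustment over all genes. The script was tested on simulated data. Summaries used Python 3.11.15, pandas 2.3.3 and numpy 2.4.6, and plots matplotlib 3.10.9. Genes of like span are those with a locus span of 273 to 1815 bp, the range of the SAUR genes with a locus of their own. Counts of libraries that do not overlap used every listed gene. The alternatives were median scaling, quantile normalization, pseudocounts of 0.1 and 5, a filter at 5 FPKM, no filter, a gene span correction, the libraries of a contrast alone, a replicate block and leaving out each library. Comparisons with each Col-0 shoot library alone, and exchanged Col-0 shoot numbers, were chosen after seeing the data. The genotype contrasts and the tissue contrasts share libraries.

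The SAUR genes, the other lists and the tests were chosen with earlier results of these data known. Named were, for the tissues, the 6 genes highest in each by the mean log2 fold change among those called without overlap in both genotypes; for each genotype contrast, the 5 of smallest p each way; for the interaction, the 3 of smallest p; the 5 of highest mean in each tissue; all genes below the filter and all in neighbourhoods; and called genes of the other lists. Genes that fall outside this rule, such as SAUR8 and SAUR77, were singled out after their values were seen.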

Additional observations from a re-analysis of the deposited data

Results flagged for a closer look

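SAUR16 lay higher in OE-SAUR41 than in Col-0 roots and lower in OE-SAUR41 than in Col-0 shoots, with every library of each tissue on its side, a difference of 2.18 between the log2 fold changes. The roots were at 0.365 and 0.703 FPKM in OE-SAUR41 and 0.326 and 0.299 FPKM in Col-0, far below the shoots. Over all genes 2.64% showed this pattern. SAUR55 showed the opposite pattern, lower in OE-SAUR41 roots and higher in OE-SAUR41 shoots, with a difference of -1.25, and 1.01% of all genes did so. Here the shoots were low, at 0.675 and 0.803 FPKM in OE-SAUR41 and 0.400 and 0.107 FPKM in Col-0. Both were noticed from the sides on which the libraries fell, which is no test. The limma interaction test gave adjusted p values of 0.792 for SAUR16 and 0.807 for SAUR55, so neither difference passed.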

How the results depend on the processing

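Read depth is unknown, each group has 2 libraries and many SAUR genes stood near 1 FPKM. Replicate numbers were not taken as pairs, since the correlation of replicate differences was 0.08 between OE-SAUR41 and Col-0 roots and -0.00 between the shoots. Between roots and shoots it lay between -0.22 and 0.46, the highest for OE-SAUR41 roots and Col-0 shoots. With the replicate block, 0 SAUR genes were called between genotypes or in the interaction, 17 higher and 16 lower between tissues in OE-SAUR41, and 17 higher and 22 lower in Col-0. With the Col-0 shoot numbers exchanged, chosen because their correlation with Col-0 roots was -0.22, Col-0 tissue calls were 17 higher and 22 lower. Shares of all genes called under the replicate block and this exchange are not given, so nothing is read from these tissue counts.

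In shoots, 0 SAUR genes were called between genotypes, but 3 with the span correction (all lower, as were 0.327% of all genes), and 0 to 16 with 1 library left out. The interaction gave 0 to 7 calls with 1 library left out; the 7 came without Col-0 shoot 2, where 32.1% of all genes were called on one side and 2.70% on the other. With quantile normalization the genes called higher in roots were 6 in OE-SAUR41 and 11 in Col-0. With a filter at 5 FPKM, which left 18 genes, those called lower in roots were 5 in OE-SAUR41 and 5 in Col-0. The share of all genes called at that filter is not given, so these counts carry no reading. The median log2 fold change of the tested SAUR genes minus that of all genes was -0.00 between genotypes in roots, but -0.40 with the filter at 5 FPKM, and -0.30 in shoots. Root over shoot it was -1.44 in OE-SAUR41 and -1.92 in Col-0. In OE-SAUR41 it was -2.35 and -0.73 with pseudocounts of 0.1 and 5, -0.90 with no filter, 0.67 with the filter at 5 FPKM, -0.98 with quantile normalization, -0.67 with median scaling and -1.48 to -1.19 with 1 library left out. In Col-0 it was -2.62 and -0.85 with those pseudocounts, -1.12 with no filter, 0.63 with the filter at 5 FPKM and -2.19 to -1.37 with 1 library left out. The Col-0 values with median scaling and quantile normalization are not given here. Of the 42 SAUR genes tested, 19 passed the filter through shoot libraries alone and 9 through root libraries alone. Nothing is therefore read from the medians over filtered genes. The filter at 5 FPKM changes which genes enter, and for the other changes the cause was not tested. SAUR26 in shoots was 0.20 and turned to -0.22 without OE-SAUR41 shoot 1, with a range of -0.22 to 0.62 over the libraries left out. Of the values of named genes, all 165 in roots and 153 of 164 in shoots kept their direction and side of the threshold, as did 214 of 214 in the Col-0 and 200 of 202 in the OE-SAUR41 tissue contrast.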
